A study of Mus musculus with 6 samples.

Results

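Non-Hox transcription factors that mark position in the mesenchyme of limb, trunk and face were followed in mouse embryonic fibroblasts with and without Klf4. The set holds 50 genes of the homeobox, T-box, forkhead, Pax and basic helix-loop-helix (bHLH) families. Its members were chosen with earlier results of these data known, and their probes by gene symbol. A probe belongs to the set if the symbol deposited for it is a listed gene, which gave 75 probes. A further 3 joined through updated symbols. These 78 of 46621 probes read 47 of the 50 genes, and Meis2, Irx2 and Tbx3 were not analysed here. There were 3 Klf4-null samples (Klf4 -/-) and 3 wild-type samples (Klf4 +/+), each on 1 Illumina bead array, all from C57Bl/6 mouse embryonic fibroblasts, grown in serum-containing medium and given an age of 13 days. Neither separate embryos nor separate cultures are named, so p-values describe only how these samples vary, and that variation may be technical. The embryonic region from which the fibroblasts were taken is not given in the sources used here.

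Fibroblasts keep in culture much of the positional code of the tissue they came from. That code is held by Hox genes along the trunk and limb and, outside the Hox clusters, by factors such as the Dlx genes of the pharyngeal arches, Tbx5 and Tbx4 of the forelimb and hindlimb, and En1 of the ventral limb and the dorsal trunk dermis. Many of them respond to bone morphogenetic proteins (BMPs), fibroblast growth factors, hedgehog proteins, Wnt proteins or retinoic acid, and several act as partners of one another on DNA. Klf4 encodes a zinc-finger factor that binds GC-rich and CACCC-type sequences.

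Values are normalized probe intensities on a linear scale. A probe was tested if it exceeded an estimated background floor (intensities of 54.1 to 54.2 across the 6 arrays) on at least 3 of the 6 arrays, and a change was called where limma gave an adjusted p under 0.05 over all probes tested. A positive log2 fold change means higher in Klf4-null cells, and SE is its standard error. Arrays correlated at 0.996 to 0.998 within Klf4-null, 0.995 to 0.996 within wild type and 0.947 to 0.951 between the groups. Klf4 itself was read by 3 probes. ILMN_1241903 gave 39.7, 46.8 and 43.7 in Klf4-null cells, against 98.7, 95.6 and 103 in wild-type cells. ILMN_1221264 gave 45.4, 43.9 and 41.3 in Klf4-null cells, against 63.2, 66.2 and 78.0 in wild-type cells. The brightest, ILMN_2593684, gave 702, 707 and 737 in Klf4-null cells, against 403, 494 and 380 in wild-type cells. The dimmer probes fell to below the floor on every Klf4-null array and the brightest rose, and the place of each probe in the gene, inside or outside what was disrupted, is not given in the sources used here.

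Of the 47 genes with a probe, 28 had at least 1 probe bright enough to test, and 17 of them changed: 6 were higher in Klf4-null cells (Dlx3, Foxd1, Lhx2, Msx1, Prrx2 and Tbx5) and 11 were lower (Dlx1, Dlx2, En1, Foxc2, Foxf2, Irx1, Irx3, Irx5, Meis1, Prrx1 and Tbx4). Each gene is counted by its brightest probe. Over all 16178 genes tested, 40.2% changed, 19.4% upward and 20.8% downward. Counted by probe, 23 of the 38 tested probes changed, 6 upward and 17 downward, against 38.9%, 19.0% and 19.9% of 21772 probes. Since a probe could pass the floor through 1 group alone, 2 further counts are given. With no floor, 6 of the 47 genes were higher and 12 were lower, against 9.72% and 10.2% of 32291 genes. Among the 19 genes above the floor on all 6 arrays, 1 was higher and 10 were lower, against 19.5% and 22.6% of 12989 genes, and 6 fell at least 2-fold, against 3.03%. Falls of at least 2-fold were seen for En1, Dlx2, Foxc2, Meis1, Dlx1 and Prrx1. They are 6 of the 28 genes, against 3.28% of all genes tested. With no floor the set has 47 genes, and the share over all genes was 1.64%. As members were chosen with earlier results of these data known, these shares describe the set and do not test it. Rises of at least 2-fold were seen for Msx1 and Dlx3, against 3.88% of all genes tested. Both passed the floor through the Klf4-null group, and among the 19 genes above it on all 6 arrays 0 rose by 2-fold, against 2.93%. The Klf4-null and wild-type arrays did not overlap for 20 of the 28 genes, against 48.3% of all genes tested. The median log2 fold change was -0.14 over the 28 genes and -0.03 over all genes tested. The shares over all genes are high, so a call by itself sets a gene little apart from the rest of the array. The sizes that follow carry more than the calls, but the intensities include background signal (array medians of 51.7 to 51.8). A fold is therefore compressed on a dim probe, and folds of probes of unlike brightness are not directly comparable.

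**Figure D1:**
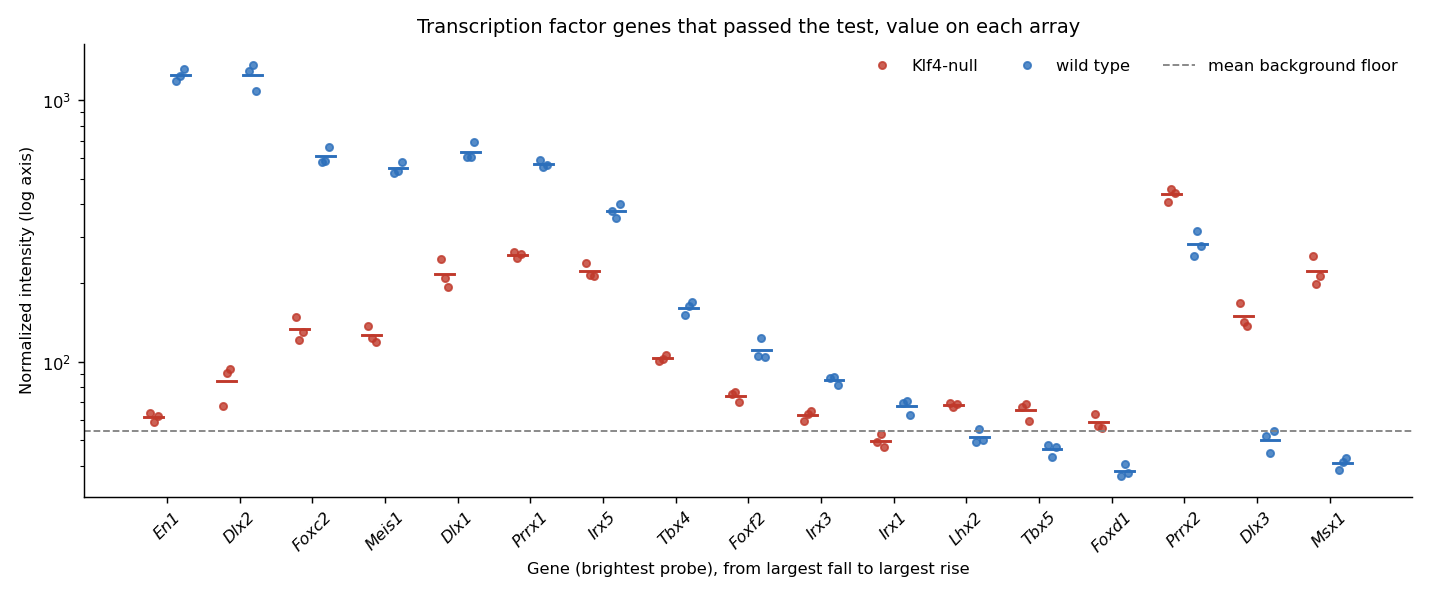
Normalized intensity (log axis) on each of the 3 Klf4-null and 3 wild-type arrays for the 17 genes that changed, each by its brightest probe. Points are arrays, short lines are group means and the dashed line is the mean background floor. En1 lies between 59.0 and 63.6 in Klf4-null samples and between 1185 and 1319 in wild-type samples, while Msx1 lies between 199 and 254 in Klf4-null samples and below the floor in every wild-type sample.

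En1 showed the largest fall of the set. It encodes engrailed 1, a homeodomain repressor that sets the ventral side of the limb bud and marks a lineage of dorsal dermal fibroblasts in the mouse. Its brighter probe ILMN_2776048 read 63.6, 59.0 and 62.2 in Klf4-null cells, against 1185, 1235 and 1319 in wild-type cells. All Klf4-null values were just above the floor, and the groups were far from overlapping. The fall was 20.2-fold (log2 fold change -4.34, SE 0.08, limma adjusted p = 4.2e-14, n = 3 per group). The other probe, ILMN_3163581, read 44.5, 42.5 and 38.7 in Klf4-null cells and 309, 279 and 342 in wild-type cells. Both probes thus moved the same way, the dimmer one to below the floor and by at least 5.71-fold (limma adjusted p = 1.1e-11). In RNA from whole cultures, fewer cells that express a gene and less of its RNA in each cell cannot be told apart. The paralog En2, which acts in the midbrain and hindbrain, stayed below the floor on all 6 arrays (39.1 to 42.3 in Klf4-null cells, 41.6 to 45.2 in wild-type cells).

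The distal-less homeobox genes lie in pairs on the chromosomes and pattern the pharyngeal arches, the limb ectoderm and the forebrain. The Dlx1 and Dlx2 pair, which marks arch mesenchyme, fell together. Dlx2 on its brighter probe ILMN_2860958 read 67.6, 90.8 and 93.9 in Klf4-null cells, against 1290, 1370 and 1090 in wild-type cells. It was low in every Klf4-null sample and fell 14.96-fold (log2 fold change -3.90, SE 0.12, limma adjusted p = 9.8e-12, n = 3 per group). On the dimmer probe ILMN_2773364 the values were 65.2, 59.8 and 51.7 in Klf4-null cells and 102, 98.4 and 114 in wild-type cells. That is a fall of 1.78-fold, read much nearer the floor. Dlx1 read 247, 208 and 194 in Klf4-null cells, against 607, 607 and 695 in wild-type cells. It fell 2.95-fold (log2 fold change -1.56, SE 0.10, adjusted p = 1.8e-08) and stayed well above the floor in both groups.

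Dlx3, which acts in placenta, skin, teeth and bone, went the opposite way. It read 168, 142 and 137 in Klf4-null cells, against 51.99, 44.9 and 54.4 in wild-type cells, where 1 of 3 arrays was above the floor. The rise was 2.96-fold (log2 fold change 1.57, SE 0.10, limma adjusted p = 1.9e-08, n = 3 per group). Its chromosomal neighbour Dlx4 was not bright enough to test on either probe, so the pair cannot be compared. The Dlx5 and Dlx6 pair, which sets lower-jaw identity under endothelin signals, showed no difference that passed. Dlx5 read 78.2, 87.8 and 76.5 in Klf4-null cells and 72.4, 78.5 and 63.3 in wild-type cells (limma adjusted p = 0.156, n = 3 per group), and the groups overlapped. Dlx6 stayed near the floor in both groups (52.1 to 55.9 in Klf4-null cells, 54.1 to 62.0 in wild-type cells, adjusted p = 0.578).

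The 250 bases upstream of the annotated start are shown for En1 and for Dlx1 and Dlx2, as the gene with the largest fall and as neighbours that fell together. They are RefSeq sequences of mouse build GRCm38.p6, written 5′ to 3′ on the strand of the gene, with each match to the letters CACCC on either strand in capitals. The windows are chr1:120602237-120602486 on the plus strand for En1, chr2:71529195-71529444 on the plus strand for Dlx1 and chr2:71546755-71547004 on the minus strand for Dlx2.
En1: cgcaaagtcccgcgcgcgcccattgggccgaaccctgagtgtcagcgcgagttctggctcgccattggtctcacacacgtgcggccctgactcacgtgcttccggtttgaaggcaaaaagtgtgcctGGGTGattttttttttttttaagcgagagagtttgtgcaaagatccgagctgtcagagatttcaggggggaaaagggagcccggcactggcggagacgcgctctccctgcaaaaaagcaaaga
Dlx1: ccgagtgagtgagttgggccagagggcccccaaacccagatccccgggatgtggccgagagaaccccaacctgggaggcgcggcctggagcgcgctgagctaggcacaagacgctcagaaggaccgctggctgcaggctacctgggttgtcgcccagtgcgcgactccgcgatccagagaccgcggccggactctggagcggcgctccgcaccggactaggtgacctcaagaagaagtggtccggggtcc
Dlx2: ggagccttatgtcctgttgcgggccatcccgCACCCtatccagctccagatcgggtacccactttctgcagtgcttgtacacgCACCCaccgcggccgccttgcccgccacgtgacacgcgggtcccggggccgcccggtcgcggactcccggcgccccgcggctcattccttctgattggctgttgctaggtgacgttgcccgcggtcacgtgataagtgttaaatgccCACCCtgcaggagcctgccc
The En1 window holds 1 match, the Dlx1 window holds 0 and the Dlx2 window holds 3, and 17087 of 32851 such windows over all genes hold at least 1. All are rich in CG pairs, with 19 in the En1 window, 22 in the Dlx1 window and 24 in the Dlx2 window, against a median of 6 over all windows. The letters TAAT, the core bound by most homeodomains, occur in none of these 3 windows on either strand, against 54.9% of all windows. A match describes the sequence only and shows no binding.

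The Msx genes encode homeodomain repressors that respond to BMPs and keep limb, tooth and skull mesenchyme from differentiating. Msx1 had the largest rise of the set. Its probe ILMN_1246173 read 254, 199 and 212 in Klf4-null cells, against 38.6, 41.4 and 43.0 in wild-type cells. It was above the floor in every Klf4-null sample and in no wild-type sample, and rose at least 4.07-fold (limma adjusted p = 1.1e-10, n = 3 per group). Its other probe, ILMN_1215278, read 51.7, 56.9 and 53.6 in Klf4-null cells and 60.6, 52.3 and 58.5 in wild-type cells (log2 fold change -0.08, SE 0.08, adjusted p = 0.532). That probe lay near the floor, above it on 1 Klf4-null and 2 wild-type arrays. It did not show the rise, which thus rests on ILMN_1246173 alone. Msx2 was above the floor on 1 Klf4-null array and 1 wild-type array and was not tested.

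Prrx1 and Prrx2 are paired-related homeobox genes of limb and face mesenchyme whose joint loss in mice is more severe than the loss of either. They moved apart. Prrx1 on its brightest probe ILMN_2678094 read 262, 249 and 257 in Klf4-null cells, against 593, 554 and 567 in wild-type cells. It fell 2.23-fold (log2 fold change -1.16, SE 0.08, limma adjusted p = 2.5e-08, n = 3 per group) with no overlap. The probes ILMN_1234976 and ILMN_1227686 fell by similar sizes, 2.20-fold and 2.03-fold. The remaining probe, ILMN_1248338, was deposited under a clone name that RefSeq lists as a synonym of Prrx1, and it read 149, 164 and 164 in Klf4-null cells and 156, 168 and 149 in wild-type cells (log2 fold change 0.01, adjusted p = 0.944). Prrx2 read 409, 460 and 441 in Klf4-null cells, against 254, 317 and 276 in wild-type cells. Every Klf4-null sample was above every wild-type sample, and the rise was 1.55-fold (log2 fold change 0.63, SE 0.09, adjusted p = 8.5e-05).

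The upstream windows of Prrx1, Prrx2 and Msx1 are shown as those of paralogs that moved apart and of the gene with the largest rise, marked in the same way. They lie at chr1:163313651-163313900 on the minus strand for Prrx1, chr2:30845117-30845366 on the plus strand for Prrx2 and chr5:37824586-37824835 on the minus strand for Msx1.
Prrx1: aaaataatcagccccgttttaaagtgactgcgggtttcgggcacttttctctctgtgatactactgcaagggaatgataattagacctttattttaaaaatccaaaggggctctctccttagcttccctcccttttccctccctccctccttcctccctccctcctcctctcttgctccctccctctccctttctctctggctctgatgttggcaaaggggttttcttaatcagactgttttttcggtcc
Prrx2: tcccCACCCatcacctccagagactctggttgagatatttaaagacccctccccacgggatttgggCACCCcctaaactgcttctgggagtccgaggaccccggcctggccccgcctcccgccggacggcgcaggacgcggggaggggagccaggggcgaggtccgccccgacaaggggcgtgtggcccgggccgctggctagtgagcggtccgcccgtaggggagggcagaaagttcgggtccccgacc
Msx1: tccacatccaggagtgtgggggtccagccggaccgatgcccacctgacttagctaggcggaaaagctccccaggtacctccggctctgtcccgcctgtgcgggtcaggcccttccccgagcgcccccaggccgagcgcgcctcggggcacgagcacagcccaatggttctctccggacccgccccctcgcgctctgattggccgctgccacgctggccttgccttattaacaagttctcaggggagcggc
The windows of the Prrx paralogs differ in composition. That of Prrx1, which fell, is 47.6% G or C with 4 CG pairs, 4 matches to TAAT and 0 to CACCC. That of Prrx2, which rose, is 70.0% G or C with 21 CG pairs, 0 matches to TAAT and 2 to CACCC. The Msx1 window has 20 CG pairs, 1 match to TAAT and 0 to CACCC. Across the set, 29 of the 47 genes have a window in the table, and CACCC occurs in 6 of 8 windows of genes that fell, 3 of 4 of genes that rose, 5 of 7 of tested genes that did not pass and 6 of 10 of untested genes, against 17087 of 32851 over all genes. TAAT occurs in 1 of 8, 1 of 4, 5 of 7 and 5 of 10 of the same windows, against 54.9% over all genes.

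**Figure D2:**
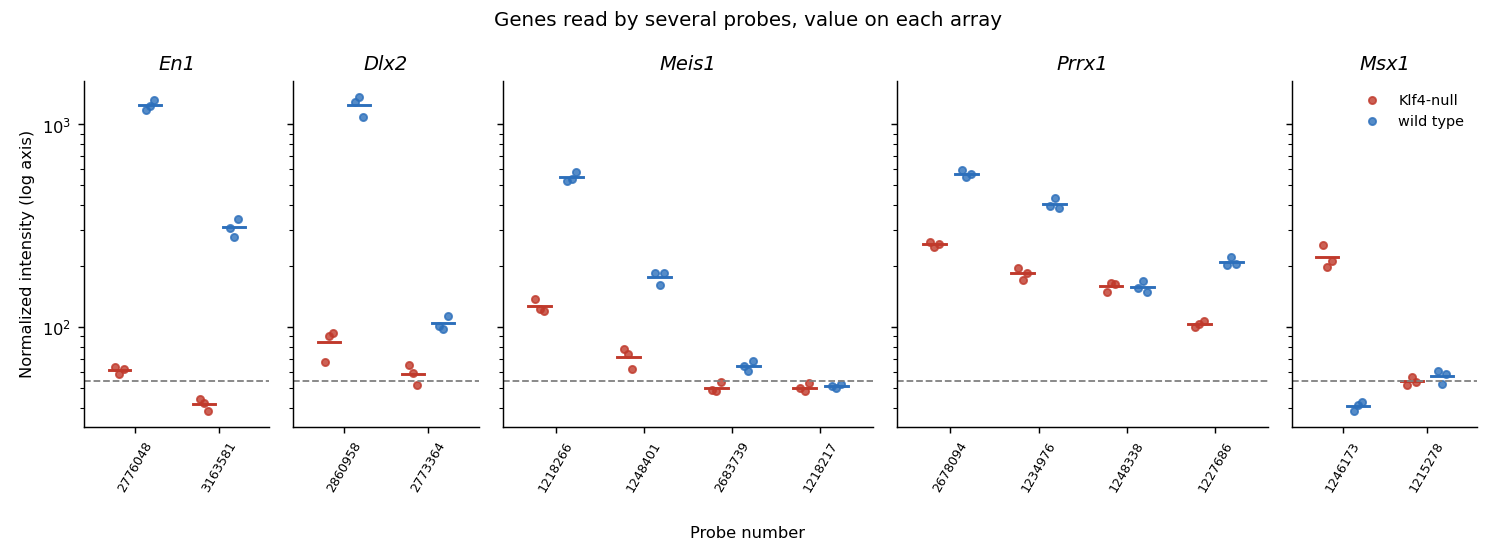
Normalized intensity (log axis) on each array for En1, Dlx2, Meis1, Prrx1 and Msx1, each read by several probes, with probe numbers on the x axis. Points are arrays, with Klf4-null left of wild type for each probe, short lines are group means and the dashed line is the mean background floor. The En1 and Dlx2 probes all fell, 3 of 4 Meis1 and 3 of 4 Prrx1 probes fell, and 1 of 2 Msx1 probes rose, the other lying near the floor.

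The TALE class of homeodomain proteins (Meis, Pbx and Iroquois) includes cofactors that form complexes with Hox and other homeodomain proteins. Meis1, which marks the proximal limb and is induced by retinoic acid, was read by 4 probes. The brightest, ILMN_1218266, read 138, 123 and 120 in Klf4-null cells, against 526, 538 and 583 in wild-type cells. It fell 4.33-fold (log2 fold change -2.12, SE 0.08, limma adjusted p = 1.1e-10, n = 3 per group). Probe ILMN_1248401 fell 2.49-fold, with 78.4, 73.5 and 62.5 in Klf4-null cells and 185, 162 and 185 in wild-type cells. Probe ILMN_2683739 fell at least 1.19-fold (adjusted p = 0.0028), below the floor on every Klf4-null array, and the fourth was below the floor on all 6 arrays. The measured size of the fall differed among probes of unlike brightness, while its direction was shared by the 3 probes that could be tested. Pbx3 is a partner of Meis and Hox proteins. Its brightest probe read 180, 195 and 213 in Klf4-null cells and 195, 200 and 218 in wild-type cells, with overlap (adjusted p = 0.636). On the dimmer probe ILMN_2642148 the groups did not overlap, yet the difference did not pass (log2 fold change -0.14, limma adjusted p = 0.17).

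All 3 Iroquois genes with a probe fell. These genes lie in 2 clusters and pattern limb bud, heart and neural tube. Irx5 read 238, 215 and 212 in Klf4-null cells, against 377, 356 and 400 in wild-type cells, a fall of 1.70-fold (log2 fold change -0.77, SE 0.08, limma adjusted p = 4.4e-06, n = 3 per group). Irx3, its neighbour on chromosome 8, read 59.2, 63.2 and 64.6 in Klf4-null cells and 86.9, 87.6 and 81.7 in wild-type cells, a fall of 1.37-fold (adjusted p = 0.00032). Irx1, in the other cluster, read 49.2, 52.8 and 47.2 in Klf4-null cells and 69.7, 70.8 and 62.7 in wild-type cells, below the floor on each Klf4-null array, and fell at least 1.25-fold (adjusted p = 0.00064). The groups did not overlap for any of the 3, though only Irx5 was well clear of the floor.

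Forkhead factors showed falls and a rise. Foxc2, which acts in paraxial mesoderm and in lymphatic valves, read 149, 121 and 130 in Klf4-null cells, against 582, 585 and 664 in wild-type cells. It fell 4.59-fold (log2 fold change -2.20, SE 0.09, limma adjusted p = 2.5e-10, n = 3 per group). Foxf2, a hedgehog-responsive factor of palate and gut mesenchyme, read 75.0, 76.9 and 69.9 in Klf4-null cells and 105, 123 and 104 in wild-type cells (log2 fold change -0.58, SE 0.09, adjusted p = 0.00011), with no overlap. Foxd1, which marks kidney stroma, read 63.2, 57.0 and 55.8 in Klf4-null cells and 36.5, 40.5 and 37.6 in wild-type cells. It passed the test, but its Klf4-null values were so near the floor that the rise is bounded only at 1.08-fold or more (adjusted p = 3.6e-05). Foxc1, close to Foxf2 on chromosome 13, was below the floor on all 6 arrays.

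T-box genes act in the limb buds, the heart and the dermis. The genes of the hindlimb and the forelimb moved in opposite directions, both with small measured folds. Tbx4, of hindlimb and lung, read 101, 103 and 106 in Klf4-null cells, against 151, 164 and 169 in wild-type cells. It fell 1.56-fold (log2 fold change -0.64, SE 0.08, limma adjusted p = 1.5e-05, n = 3 per group). Tbx5, of forelimb and heart, read 66.9, 69.2 and 59.6 in Klf4-null cells, against 48.1, 43.4 and 47.1 in wild-type cells on probe ILMN_1234245. That probe was below the floor on every wild-type array and rose at least 1.20-fold (adjusted p = 0.00032), while the other 2 Tbx5 probes were too dim to test. Pitx1, the homeobox gene that sets hindlimb identity upstream of Tbx4, stayed below the floor on all 6 arrays (45.2 to 53.1 in Klf4-null cells, 43.3 to 48.2 in wild-type cells).

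Tbx15, a factor of dermis and skeleton, read 72.9, 81.3 and 81.2 in Klf4-null cells and 90.4, 84.5 and 101 in wild-type cells. The groups did not overlap, but the difference did not pass (log2 fold change -0.23, SE 0.09, limma adjusted p = 0.0588, n = 3 per group). Tbx18, of somites and epicardium, gave -0.22 (adjusted p = 0.0772) and overlapped. Without wild-type replicate 2 both passed, at limma adjusted p = 0.029 for Tbx15 and 0.035 for Tbx18. With any other array left out neither passed (limma adjusted p of 0.08 to 0.21 for Tbx15 and 0.055 to 0.31 for Tbx18). Tbx20, a heart factor, was testable on 1 of 5 probes, which was deposited under a clone name, and did not pass (log2 fold change 0.02, adjusted p = 0.899). Tbx1 and Tbx2 were not bright enough to test.

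LIM homeobox genes pattern the limb, the forebrain and the gonad. Lhx2, of limb bud and hair follicle, read 69.3, 67.2 and 68.7 in Klf4-null cells, against 49.3, 55.1 and 50.4 in wild-type cells, where 1 of 3 arrays was above the floor. The rise was 1.33-fold (log2 fold change 0.41, SE 0.08, limma adjusted p = 0.00078, n = 3 per group). Its paralog Lhx9 was above the floor on 2 wild-type arrays and on no Klf4-null array, too few to be tested. The Lhx9 probe ILMN_1245843 read 41.7, 42.6 and 42.3 in Klf4-null cells and 54.7, 53.9 and 70.6 in wild-type cells, and with no floor it was lower (adjusted p = 0.0023). Lmx1b, which sets the dorsal side of the limb opposite En1, read 61.3, 68.5 and 69.9 in Klf4-null cells and 67.1, 63.8 and 61.7 in wild-type cells, with overlap (adjusted p = 0.698).

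Among the other homeobox and Pax genes nothing passed. Shox2, of the proximal limb and the palate, read 699, 719 and 810 in Klf4-null cells and 611, 668 and 682 in wild-type cells on its brightest probe. These groups did not overlap, yet the difference did not pass (log2 fold change 0.18, SE 0.09, limma adjusted p = 0.115, n = 3 per group), and a dimmer probe leaned the other way (-0.22, adjusted p = 0.111). Six4, of muscle precursors, read 57.0, 64.7 and 60.4 in Klf4-null cells and 77.25, 66.4 and 67.7 in wild-type cells (log2 fold change -0.21, adjusted p = 0.0693). Pax1 and Pax9, which build the vertebrae from the sclerotome, stayed close to the floor in both groups (log2 fold changes -0.01 and -0.04, adjusted p = 0.949 and 0.784).

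The 19 genes with no testable probe were En2, Dlx4, Msx2, Tbx1, Tbx2, Pitx1, Lhx8, Lhx9, Six2, Emx2, Alx1, Alx4, Barx1, Barx2, Pax3, Foxc1, Hand1, Hand2 and Tcf21. All untested probes together, 40 in number, had means of 36.6 to 53.4 in Klf4-null cells and 35.7 to 59.8 in wild-type cells. Of these probes, 7 were above the floor on 1 array and 5 on 2 arrays. With no floor, the Lhx9 probe was the only one of the 40 that passed. A low signal from 1 probe does not show that a gene is silent.

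**Figure D3:**
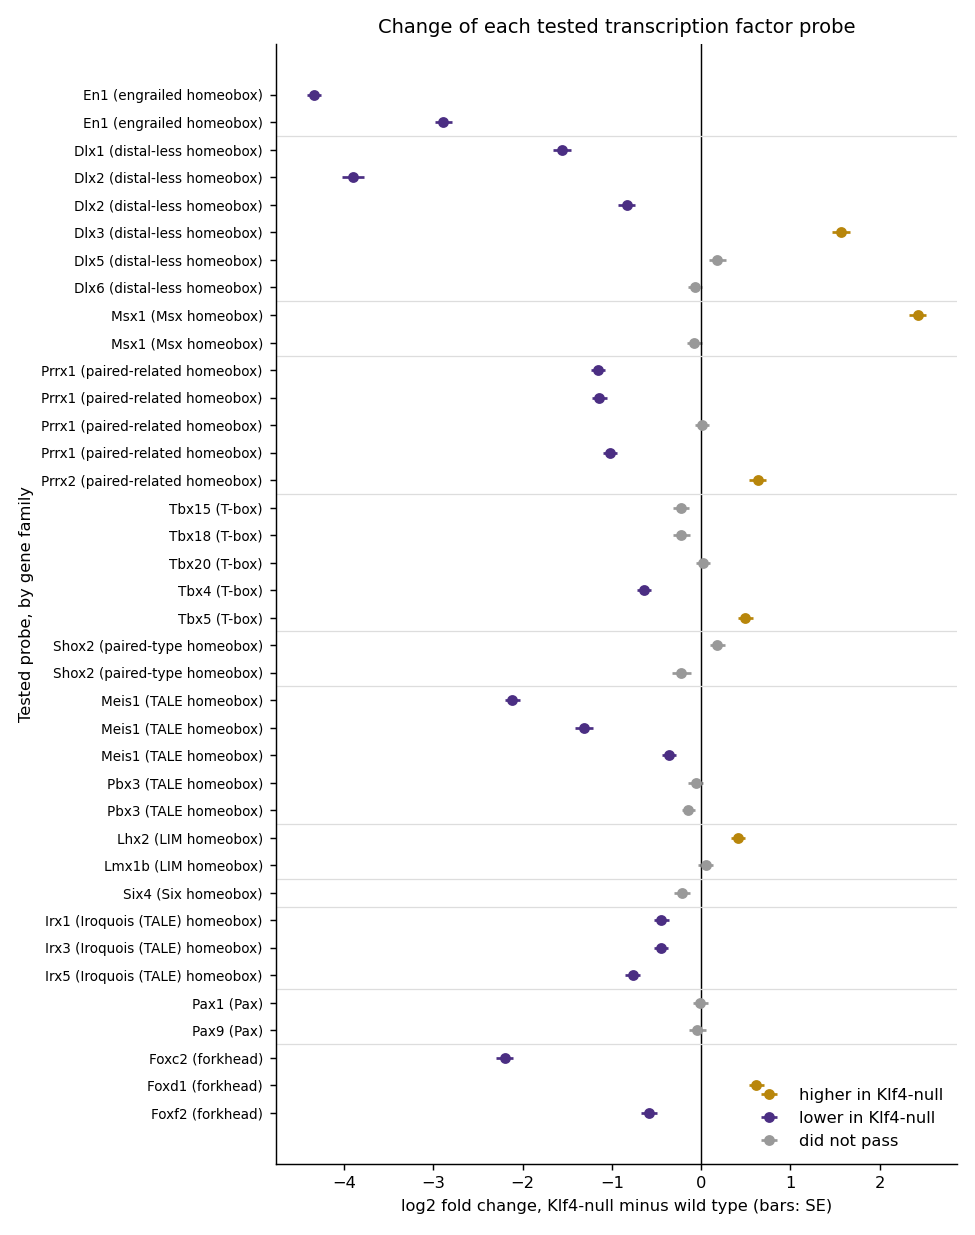
Log2 fold change of each of the 38 tested probes, Klf4-null minus wild type, with its SE as a bar, grouped by gene family. Purple points are the 17 lower probes, gold points the 6 higher ones and grey points the 15 that did not pass. The falls reach -4.34 for En1. The highest point, Msx1 at 2.43, is a fitted difference from wild-type arrays that were all below the floor, where the rise is bounded only at 4.07-fold or more.

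Members that lie within 1 Mb of each other were set side by side. Where both neighbours changed, they changed the same way: Dlx1 with Dlx2, separated by 9.4 kb on chromosome 2 (log2 fold changes -1.56 and -3.90), and Irx3 with Irx5, separated by 556.1 kb on chromosome 8 (-0.45 and -0.77). In the pairs Dlx5 with Dlx6 and Lmx1b with Pbx3 neither gene passed. In the other 5 pairs 1 gene had no testable probe, so their directions could not be compared. Only 2 such pairs could be read in this way.

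Genes that act with these factors were described from 3 lists. Of 30 cofactors, such as Eya, Groucho-type Tle and Id proteins, 24 were tested: 3 rose, 11 fell and 10 did not pass, against 19.4% higher and 20.8% lower over all genes tested. The median log2 fold change of the 24 was -0.16, against -0.03 over all genes. The falls were led by Id3, an inhibitor of bHLH proteins, which read 258, 215 and 239 in Klf4-null cells and 1338, 1500 and 1367 in wild-type cells, and by the corepressor Tle2, which fell 3.04-fold. Id2 fell 3.00-fold on its representing probe, while its other probe did not pass. Among the rises were those of Eya4, a coactivator of Six-family proteins (at least 1.71-fold), and Tcf4, a bHLH partner (1.51-fold, with another probe also higher and a dim one that did not pass).

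Of 44 other positional and mesenchymal factors, 27 were tested: 10 rose, 5 fell and 12 did not pass, against the same 19.4% and 20.8% over all genes. Their median log2 fold change was 0.09. Osr2, a zinc-finger factor of palate and limb joints, read 1680, 1772 and 1595 in Klf4-null cells and 338, 363 and 322 in wild-type cells, a rise of 4.93-fold. Otx1, a head and forebrain homeobox gene, rose at least 3.95-fold, and Meox2, of somites and limb muscle, at least 2.94-fold, both from below the floor in wild type. Sox9, the regulator of cartilage formation, read 663, 638 and 760 in Klf4-null cells and 3691, 4010 and 3570 in wild-type cells, a fall of 5.48-fold. The repressor Hic1 fell 3.57-fold, and Zfhx3 fell 1.65-fold on its brightest probe, with 1 of its other 2 tested probes also lower. The changes of these genes, like those of the set, ran in both directions.

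Of 40 patterning signals, receptors and enzymes, 19 were tested: 7 rose, 6 fell and 6 did not pass, again against 19.4% and 20.8% over all genes. Their median log2 fold change was -0.03. Bmp4, an inducer of Msx genes, read 667, 585 and 663 in Klf4-null cells and 44.7, 43.7 and 45.4 in wild-type cells, a rise of at least 11.8-fold (limma adjusted p = 1.6e-13, n = 3 per group). The other Bmp4 probe was below the floor on all 6 arrays. The BMP antagonist Grem1 rose at least 33.98-fold, and Fgf10, the limb bud growth factor, rose 1.73-fold on its brighter probe only. Cyp26b1, which degrades retinoic acid, read 44.8, 49.2 and 45.1 in Klf4-null cells and 170, 141 and 171 in wild-type cells, a fall of at least 2.95-fold. The BMP antagonist Chrd fell 2.37-fold, and the receptor Fgfr2 fell 2.26-fold on its brightest probe, with 3 dimmer probes that did not pass. Ligand and antagonists of one pathway thus changed in the same samples as Msx1, Dlx1, Dlx2 and Meis1, and whether they act on these genes was not tested.

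**Figure D4:**
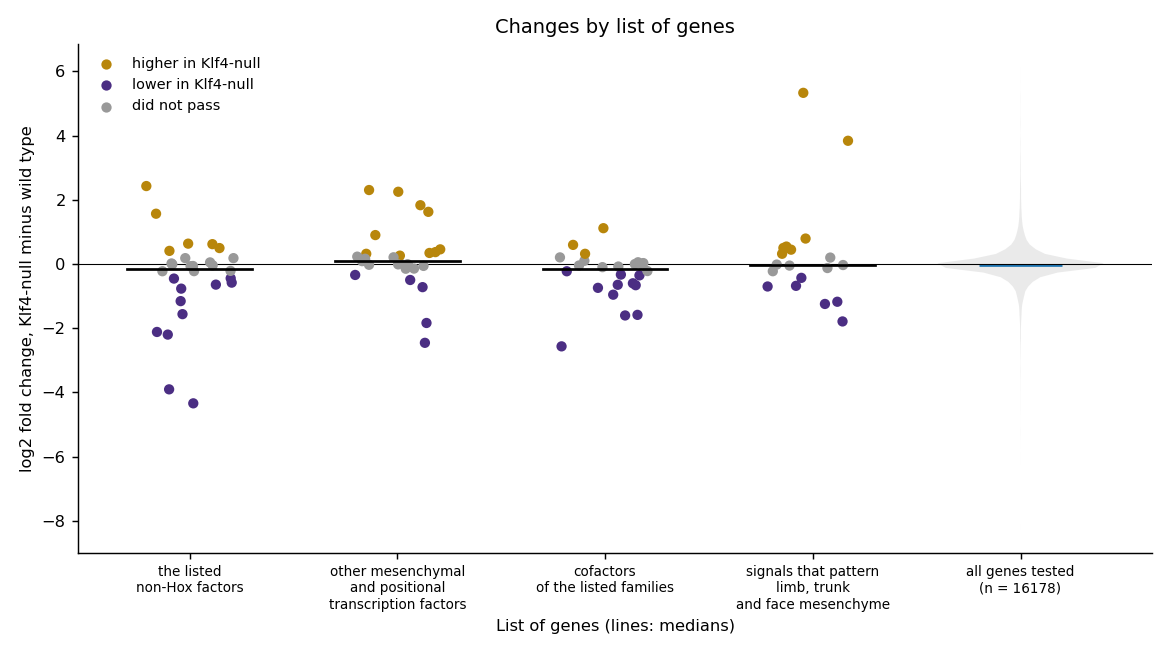
Log2 fold change, Klf4-null minus wild type, of each tested gene in the set and in the 3 further lists, with the distribution over all 16178 genes tested in grey. Horizontal lines are medians and points are coloured by the result of the test. The set has a median of -0.14 and the signals one of -0.03. Points of genes below the floor on every array of a group, such as Msx1 at 2.43 and Grem1 at 5.33, are fitted differences, for which the text gives lower bounds.

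Markers of cell types were read beside these results. Of 12 fibroblast markers 11 were tested: 4 were higher, 3 were lower and 4 did not pass, against 19.4% higher and 20.8% lower over all genes tested. The summed intensity of the list was 51149 to 54035 in Klf4-null samples and 43665 to 46574 in wild-type samples. On their brightest probes, Col3a1, Col1a1 and Dcn were at least 2-fold higher in Klf4-null cells, and Thy1 fell at least 60.8-fold. The other probes of Thy1 and Col1a1 were below the floor on all 6 arrays, and that of Col3a1 was too dim to test. The other Dcn probes were all higher too, by sizes from 1.30-fold (ILMN_2604695) to 12.8-fold (ILMN_2596346). The neural and neural crest list summed to 1065 to 1164 in Klf4-null samples and 360 to 374 in wild-type samples. Of this, Nes, an intermediate filament of progenitors, gave 762 to 856 in Klf4-null cells and 43.4 to 44.1 in wild-type cells. The other Nes probe was below the floor on all 6 arrays. Of the 3 tested genes of this list, only Nes changed and 2 did not pass. Sox10 and Ngfr, which mark neural crest, were below testable level in both groups. The cartilage list summed to 922 to 1041 in Klf4-null samples and 3831 to 4282 in wild-type samples, mostly through Sox9. Of its 3 tested genes, only Sox9 changed and 2 did not pass, with Col2a1 and Matn1 below testable level. The epithelial list summed to 287 to 293 in Klf4-null samples and 372 to 397 in wild-type samples. Of its 2 tested genes, Krt14 fell at least 2.62-fold and 1 did not pass, while Epcam, Krt5, Krt8 and Krt18 were below testable level. Of 3 tested smooth muscle genes, Actg2 fell 3.45-fold and 2 did not pass. That list summed to 11511 to 13186 in Klf4-null samples and 12925 to 13699 in wild-type samples. The skeletal and cardiac muscle list summed to 339.7 to 355.9 in Klf4-null samples and 406 to 449 in wild-type samples. The lists of endothelium, blood, skeletal and cardiac muscle, germ cells and fat held no gene that changed by at least 2-fold. The part of cell makeup in the changes of the transcription factors was not tested. Since each genotype may stem from 1 culture, genotype and the origin of a culture cannot be told apart in these changes.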

How the data were processed

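Total RNA was labelled as biotinylated cRNA and read on Illumina bead arrays, per the labels' protocols. The authors' deposited intensities, 1 per probe and array, are linear and had been normalized between arrays: their medians were 51.7 to 51.8 on the 6 arrays. How they were normalized or background-subtracted is not given in the sources used here. The lowest value was 25.8 on each array and the medians lay near the floor, so background signal remained in the intensities. Another table has 12 columns whose names match no sample, so only its gene symbols were used. Symbols were updated through RefSeq names (GRCm38.p6).

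Log2 intensities were fitted with limma 3.58.1 (lmFit, eBayes) under R 4.3.3 by genotype alone, using all 6 arrays; p-values are 2-sided and were adjusted over the whole table by Benjamini-Hochberg, with a threshold of 0.05. Of 46621 probes, 21772 passed the floor on at least 3 arrays. The floor is the 95th percentile of each array's background, taken as the mode of its log2 values with the lower side mirrored. A gene was counted by its brightest probe, with p-values adjusted over genes. Where no array of a group passed the floor, a fold is a lower bound, from the higher of floor and signal. The number of arrays limits the precision. The procedure was tested on simulated data. Replicate numbers did not pair the samples.

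All listed genes are accounted for, and from each further list up to 3 genes per direction with the largest changes are named. Some items that these rules select are not reported here. Members and lists were chosen with earlier results of these data known. Alternatives covered normalization, offset, floor, variance, a test against 1.5-fold, leaving out each array and a replicate block. No file gave a slide.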

Additional observations from a re-analysis of the deposited data

How the results depend on the processing

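Of 586 recomputed log2 fold changes of the 38 tested probes under 16 alternatives, 564 kept their direction and their side of the threshold and 8 changed sign, none of them past the threshold in either fit. These came from 4 probes with changes near 0 when 1 array was left out: the log2 fold change then ran from -0.07732 to 0.02788 for Pax1, from -0.09229 to 0.05931 for Pax9, from -0.02937 to 0.05684 for Prrx1 (ILMN_1248338) and from -0.02174 to 0.06756 for Tbx20. The 17 changed genes became 8 (2 higher, 6 lower) in the test against 1.5-fold, where 12 probes passed (2 higher, 10 lower), and 11 over probes above the floor on all 6 arrays, with 1 higher gene and 14 probes, 1 of them higher; the last count falls by construction, as fewer genes are tested. Over the whole array, the test against 1.5-fold left 1766 probes and 1477 genes, against 8478 and 6498 in the fit reported. Leaving out 1 array in turn gave 17 to 19 changed genes of the set (6 higher throughout, 11 to 13 lower) and 23 to 25 probes (17 to 19 lower), with 7170 to 8244 probes and 5521 to 6351 genes over the array. The 11 probes that no longer passed did so under the test against 1.5-fold, and they include those of Foxd1, Foxf2, Irx1, Irx3, Irx5, Lhx2, Prrx2, Tbx4 and Tbx5. Tbx15 and Tbx18 passed only without wild-type replicate 2, and Six4 only with an intensity trend in the variance (limma adjusted p = 0.049). Counting members by deposited symbols only, an alternative chosen after seeing the data, left 36 tested probes and 27 tested genes, of which 23 probes and 17 genes changed, as before. With the replicate block 17 genes and 23 probes of the set changed, as without it, and 8045 probes over the array. Same-numbered samples deviated with correlations of -0.0167, 0.0535 and -0.225, and no sample correlated best with its own number. Slide as a block was not run, as no slide is given. Signals close to the floor limit Foxd1, Tbx5, Lhx2 and Irx1.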
